A study of Homo sapiens with 14 samples.

Results

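The secreted and membrane-bound enzymes that cut extracellular matrix, and the inhibitors that hold them in check, were followed in human lung fibroblasts that were untreated, made senescent with a drug, or depleted of a chromatin or splicing protein. Genes were taken by symbol: matrix metalloproteinases (MMP), ADAMTS proteases and tissue inhibitors of metalloproteinases (TIMP). Of 47 matching symbols among the 54628 in the files, 40 had at least 10 counts over all libraries and are described here: 18 MMP, 18 ADAMTS and 4 TIMP genes. The symbols below that minimum were MMP26 with no count, MMP9 with 1, MMP11 and MMP27 with 2 each, MMP28 with 4, MMP20 with 5 and ADAMTS20 with 9. MMP9, the gelatinase best known from leukocytes, was therefore close to undetected in these libraries.

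IMR90 cells, a line of primary lung fibroblasts used here as 2 isolates at passage 5, gave 14 libraries of total RNA in 7 groups of 2. Untreated wild-type cells are called WT, and untreated cells with an siRNA against HMGB2, a chromatin protein, are called siHMGB2. Senescence was induced in all other groups by up to 6 days of inflachromene (ICM) at 10 µM, a compound that binds HMGB proteins. ICM without a knockdown is represented by replicates 1 and 2 and, in a second set of libraries whose labels are written differently, by replicates 3 and 4. In that second set, which also holds siCTCF, the cell line field reads IMR91 to IMR94 while the titles say IMR90. The groups siSRRM2 and siBANF1 (ICM plus an siRNA against the splicing factor SRRM2 or the chromatin-binding protein BANF1) were compared with ICM 1-2, and siCTCF (ICM plus an siRNA against the architectural protein CTCF) with ICM 3-4. The labels do not say whether replicates came from separate cultures, so p-values rest on the spread between these libraries, which may be technical. That spread is partly pooled over genes, so a p-value or SE does not measure the replicate spread of its own gene alone.

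MMPs are zinc-dependent proteases made as inactive precursors. The collagenase MMP1 cuts fibrillar collagen, the stromelysins MMP3 and MMP10 cut proteoglycans and laminin and activate other MMPs, and MMP14, anchored in the cell membrane, activates the gelatinase MMP2 with TIMP2 as a bridge. ADAMTS proteases carry thrombospondin repeats: some cut aggrecan and versican, others remove the amino-terminal propeptide of fibrillar procollagens. The collagenase and the stromelysins are well-known parts of the secretory phenotype of senescent fibroblasts.

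Libraries held 22336161 to 58257456 gene counts, and 0.403% to 1.21% of them came from the 40 genes. All 10 markers fixed for fibroblasts were present at 1 CPM (counts scaled to the total gene counts of a library) or more in every library. Of 10 epithelial markers, 8 stayed under 1 CPM in all 14 libraries, as did 6 of 8 leukocyte markers, but only 2 of 6 endothelial and 2 of 4 smooth muscle markers. The highest levels in these 4 lists were those of KRT18 (up to 193.7 CPM), CD68 (103.8 CPM), TEK (240.9 CPM in ICM 1) and ACTG2 (344.2 CPM in siHMGB2 2). HMGB2 fell from 27.7 and 28.0 CPM in WT to 3.18 and 3.52 CPM in siHMGB2. In the second set CTCF stood at 94.9 and 91.9 CPM in ICM 3-4 versus 71.5 and 23.0 CPM in siCTCF. SRRM2 went against the labels: ICM 1-2 had 238 and 112 CPM, the siSRRM2-labelled libraries 76.1 and 76.4 CPM, and the siBANF1-labelled ones the lowest level, 59.0 and 17.0 CPM. BANF1 was no lower under its own label (17.0 and 36.7 CPM) than in ICM 1-2 (13.5 and 32.7 CPM). The deposited tables of these 4 libraries are named the other way round, those labelled siSRRM2 for BANF1 and those labelled siBANF1 for SRRM2. They are called by their labels here, and which of the knockdowns each received is uncertain. Replicates 1 and 2 stood far apart in ICM 1-2 and in siBANF1, where genes at 10 CPM or more differed by a median of 1.68-fold and 1.71-fold, against 1.04-fold to 1.21-fold in the other 5 groups.

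On the minus strand of chromosome 11, 7 of the MMP genes lie side by side. They run in the order MMP7, MMP8, MMP10, MMP1, MMP3, MMP12 and MMP13 over 435.2 kb, from 102520508 to 102955732 in GRCh38.p14. MMP10 and MMP1 are only 9290 bp apart. The genes also come as neighbours on chromosome 21 (ADAMTS1 at 26835755 to 26845409 and ADAMTS5 at 26917922 to 26967088) and further along chromosome 11 (ADAMTS8 at 130404923 to 130428609 and ADAMTS15 at 130448645 to 130476645). The promoters of 3 genes are shown, 1 for each kind of member the results follow: the stromelysin MMP10 of the chromosome 11 cluster, the membrane-bound enzyme MMP14 and the inhibitor TIMP3. Each line gives the 250 bases before the annotated start, from RefSeq on GRCh38.p14, written 5′ to 3′ on the gene's strand. Capitals mark a TATA motif (TATAAA) or a GC box (GGGCGG), searched on both strands.
MMP10, chr11:102780629-102780878, minus strand: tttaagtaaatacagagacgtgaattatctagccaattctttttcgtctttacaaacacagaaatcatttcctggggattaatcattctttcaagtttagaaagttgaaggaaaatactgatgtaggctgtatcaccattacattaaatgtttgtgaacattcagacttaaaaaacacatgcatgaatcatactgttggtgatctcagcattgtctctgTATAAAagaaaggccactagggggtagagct
MMP14, chr14:22836335-22836584, plus strand: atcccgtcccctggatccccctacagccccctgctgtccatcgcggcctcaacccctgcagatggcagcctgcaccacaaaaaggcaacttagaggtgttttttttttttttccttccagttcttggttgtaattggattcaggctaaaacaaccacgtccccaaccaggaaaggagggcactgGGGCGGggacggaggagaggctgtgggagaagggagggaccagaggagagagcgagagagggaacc
TIMP3, chr22:32801455-32801704, plus strand: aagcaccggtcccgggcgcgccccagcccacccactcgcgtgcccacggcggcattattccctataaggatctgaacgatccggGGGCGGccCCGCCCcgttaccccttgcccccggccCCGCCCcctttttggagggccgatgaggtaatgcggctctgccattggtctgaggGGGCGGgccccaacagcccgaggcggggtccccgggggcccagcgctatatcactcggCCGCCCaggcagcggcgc

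The MMP10 window holds 1 TATA motif and no GC box, the MMP14 window 1 GC box, and the TIMP3 window 5 GC boxes and no TATA motif. Promoters of 22 of the 40 genes were matched. MMP1, MMP2, MMP3 and ADAMTS1 were among those without an entry, so their promoters were not searched for any motif. A GC box was found in 17 of them, against 42.31% of all 27305 promoters in the table, and a TATA motif in 5 (ADAMTS10, MMP7, MMP8, MMP10 and MMP21), against 11.13% of all promoters. The AP-1 motif TGAGTCA was found in 1 (MMP7), against 4.16%. These matches describe letters in a window and not bound sites.

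In WT, TIMP1 had the highest level per length of merged exon, at 1301 and 1084 CPM per kb. MMP1 followed at 405 and 224 CPM per kb, MMP2 at 248 and 244, and MMP14 at 210.5 and 205. The MMP1 range holds that of MMP2, so these neighbours in the order do not differ beyond their spread, while the MMP2 and MMP14 ranges do not overlap. TIMP2, with a mean of 142 CPM per kb, ADAMTS1 with 122, MMP3 with 106 and TIMP3 with 38.3 came next. The order of group means at the top differed. MMP3 ranked first in siSRRM2 with a mean of 1375 CPM per kb and MMP1 first in siBANF1 with 1371. TIMP1 had the highest mean in the other 5 groups, but not in every library. MMP3 exceeded TIMP1 in ICM 2 (850 against 484 CPM per kb), ICM 3 (883 against 733) and siCTCF 1 (778 against 712). In siBANF1 2 MMP3 (887) exceeded MMP1 (856). At the other end, 20 of the 40 genes never reached a group mean of 10 CPM, and 10 of those stayed under 1 CPM in every library.

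**Figure D1:**
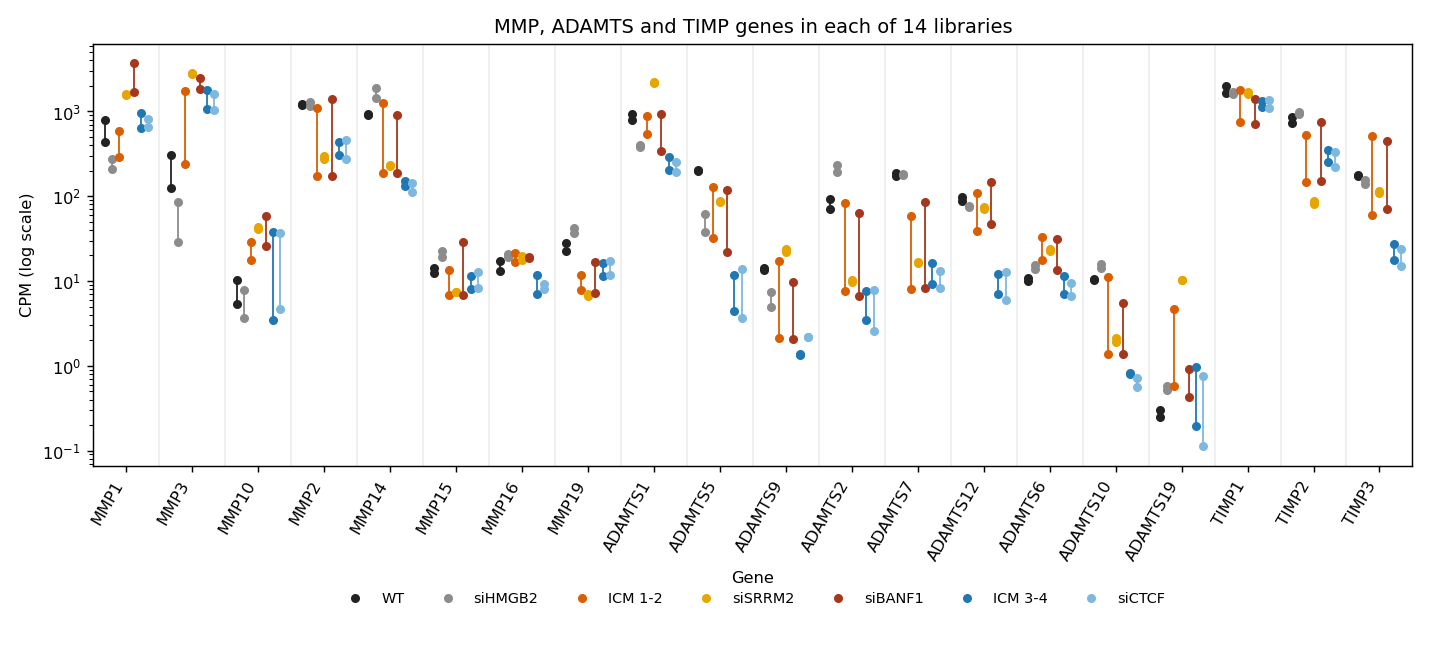
Level of the 20 genes with a group mean of at least 10 CPM. Each point is 1 library, on a log axis in CPM, coloured by group, and lines join the 2 libraries of a group. MMP3 spans 28.5 to 2833 CPM over the 14 libraries, and the 2 libraries of ICM 1-2 and of siBANF1 lie far apart for most genes.

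With HMGB2 knocked down in untreated cells, the collagenase MMP1 and the stromelysin MMP3 fell, the membrane-type enzymes MMP14 and MMP15 rose, and no TIMP passed the test. Of the ADAMTS genes, ADAMTS5 fell most and ADAMTS2 rose most. Among the 34 genes with enough counts to be tested, 13 changed (8 rose, 5 fell; edgeR's quasi-likelihood test, Benjamini-Hochberg adjusted p under 0.05 over all 19126 genes tested). Over all genes tested, 10.7% changed, 6.03% upward and 4.71% downward. The median log2 fold change was 0.15 for the 34 genes and 0 for all genes. Some calls were lost when 1 library was left out, the lone remaining library of its group being taken to vary like the other pair. In a single fit of all 14 libraries, whose spread is shared by all groups, 0 members and 0 of all genes tested were called.

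MMP1 was at 798 and 442 CPM in WT versus 278 and 211 CPM in siHMGB2. The groups did not overlap, and the log2 fold change was -1.28 ± 0.18 (SE, n = 2 per group; adjusted p = 3.1e-07). MMP3 was at 309 and 125 CPM in WT versus 85.2 and 28.5 CPM in siHMGB2, a log2 fold change of -1.88 ± 0.25 (adjusted p = 1.6e-07). Replicates of this gene differed more than 2-fold within both groups, a width that the SE, drawn partly from other genes, does not show. DESeq2 did not call it. MMP10, their neighbour, was at 10.4 and 5.40 CPM in WT versus 7.78 and 3.62 CPM in siHMGB2, so its groups overlapped and it did not pass (adjusted p = 0.40).

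MMP14 was at 939.8 and 915 CPM in WT versus 1432 and 1875 CPM in siHMGB2, and rose by 0.90 ± 0.16 on the log2 scale (adjusted p = 3.1e-05). The membrane-type MMP15 rose by 0.70 ± 0.16 (adjusted p = 0.0013), from 14.2 and 12.6 CPM to 19.4 and 22.4 CPM. The membrane-type MMP16 lay just outside the threshold at 13.2 and 17.3 CPM in WT and 20.8 and 19.4 CPM in siHMGB2 (adjusted p = 0.053), as did MMP17 at 5.21 and 5.73 CPM against 7.27 and 8.79 CPM (adjusted p = 0.053). MMP2, the enzyme that MMP14 activates, did not pass, at 1223 and 1202 CPM in WT and 1294 and 1174 CPM in siHMGB2 (log2 fold change 0.09 ± 0.15, adjusted p = 0.84). MMP19, which cuts basement membrane proteins, rose by 0.73 ± 0.15 (adjusted p = 0.00032), from 22.4 and 27.9 CPM to 37.3 and 42.3 CPM. Its call was lost without WT 1, and that of MMP15 without WT 2.

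Of the ADAMTS enzymes known to cut aggrecan or versican, ADAMTS1, ADAMTS5 and ADAMTS9 fell, ADAMTS8 rose, and ADAMTS4 and ADAMTS15 did not pass. Of the procollagen N-proteinases, ADAMTS2 and ADAMTS14 rose. ADAMTS5, the main aggrecanase of cartilage, was at 196 and 203 CPM in WT versus 62.3 and 37.9 CPM in siHMGB2, a log2 fold change of -1.93 ± 0.16 (adjusted p = 3.2e-13). Its chromosome 21 neighbour ADAMTS1 fell by 1.07 on the log2 scale (SE 0.15, adjusted p = 5.1e-07), from 796 and 929 CPM to 405 and 383 CPM. ADAMTS9 was at 14.2 and 13.7 CPM in WT versus 7.35 and 4.88 CPM in siHMGB2 (log2 fold change -1.13 ± 0.20, adjusted p = 2.3e-05). All 3 genes were lower in both siHMGB2 libraries than in either WT library, as were 5607 of all 19126 genes tested.

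ADAMTS2, which trims type I and III procollagen, was at 70.2 and 93.9 CPM in WT versus 191 and 232 CPM in siHMGB2 (log2 fold change 1.43 ± 0.15, adjusted p = 3.4e-10). ADAMTS14 rose from 2.32 and 2.17 CPM to 3.69 and 5.00 CPM (log2 fold change 1.02 ± 0.29, adjusted p = 0.012). The third procollagen N-proteinase, ADAMTS3, was at 2.59 and 3.40 CPM in WT and 1.27 and 2.26 CPM in siHMGB2 and did not pass (adjusted p = 0.21). ADAMTS6 and ADAMTS10 are related enzymes linked to fibrillin microfibrils. ADAMTS6 rose from 9.95 and 11 CPM to 15.4 and 14 CPM (log2 fold change 0.55 ± 0.17, adjusted p = 0.027), and ADAMTS10 from 10.4 and 10.2 CPM to 14.4 and 15.7 CPM (0.61 ± 0.17, adjusted p = 0.012). ADAMTS8, low in every group, rose from 2.65 and 5.43 CPM to 6.84 and 6.92 CPM (log2 fold change 0.83 ± 0.25, adjusted p = 0.022). The calls of ADAMTS6, ADAMTS8, ADAMTS10 and ADAMTS14 were lost when WT 1 was left out, and each was lost without at least 1 other library. ADAMTS7, an enzyme that cuts COMP, was at 174 and 189 CPM in WT and 176 and 185 CPM in siHMGB2, and ADAMTS12, its close relative, at 86.9 and 97.0 CPM and 75.7 and 76.8 CPM. ADAMTS19 was low in both groups, at 0.298 and 0.247 CPM and 0.512 and 0.583 CPM. None of these 3 genes passed the test.

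No inhibitor passed the test. TIMP1 was at 2005 and 1670.5 CPM in WT and 1711 and 1624 CPM in siHMGB2. TIMP2 was at 738 and 863 CPM in WT and 923 and 992 CPM in siHMGB2 (adjusted p = 0.21). TIMP3, the matrix-bound inhibitor that also acts on ADAMTS proteases, was at 176 and 177 CPM and 138 and 156 CPM. TIMP4 stayed under 1 CPM in all 4 libraries. This held with edgeR and with DESeq2. With edgeR 1 of the 4 (TIMP2) had an unadjusted p under 0.05, as did 3972 of all 19126 genes tested.

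**Figure D2:**
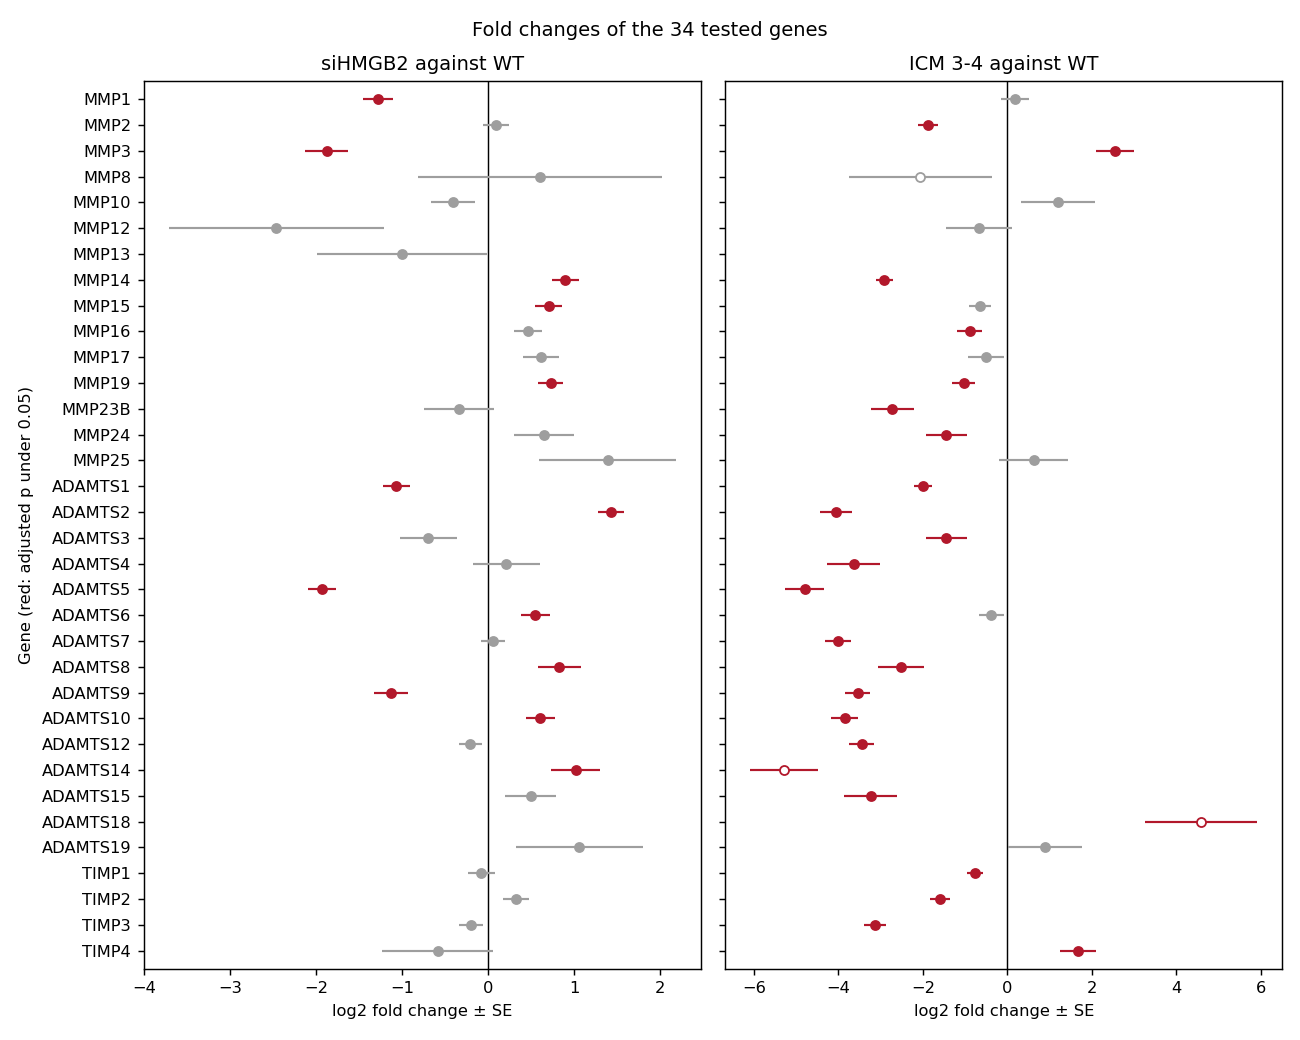
Fitted log2 fold change ± SE of the 34 tested genes for siHMGB2 against WT and for ICM 3-4 against WT, with 2 libraries in each group. Red marks an adjusted p under 0.05, open symbols a group with 1 to 3 counts in all, and a gene with no count in 1 group has no symbol. In the left panel 8 genes rose and 5 fell, and in the right panel 3 rose and 21 fell. Both panels use the same WT libraries.

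Around these genes, 3 lists were read: 37 activators, receptors, inhibitors and related sheddases (partners), 34 matrix substrates and 20 transcription factors known to act at MMP promoters. In siHMGB2, 16 of 35 tested partners changed (10 rose, 6 fell; median log2 fold change 0.14), led by ADAM19, a membrane sheddase, at 791 ± 192 CPM against 216 ± 50.0 CPM in WT (mean ± SD, n = 2 per group). The largest fall among partners was in TFPI2, a secreted inhibitor of serine proteases, at 752 ± 403 against 2865 ± 1079 CPM. Of 32 tested substrates, 18 changed (16 rose, 2 fell; median 0.56), with elastin (ELN) rising most, to 232 ± 50.5 from 78.9 ± 13.4 CPM, and the matricellular protein THBS2 falling most, to 118 ± 6.02 from 319 ± 67.9 CPM. Among the 20 transcription factors 8 changed (5 rose, 3 fell; median 0.11). The ETS factor ELK3 rose to 121 ± 8.53 from 77.9 ± 7.01 CPM and CEBPB fell to 380.3 ± 0.614 from 689 ± 135 CPM. Summed fibroblast markers ranged from 27734 to 32740 CPM in siHMGB2 and from 19300 to 25912 CPM in WT. The 4 smooth muscle markers summed to 322 to 388 CPM against 86.6 to 162 CPM. Most of the smooth muscle sum came from ACTG2, at 290 and 344 CPM in siHMGB2 and 76.4 and 149 CPM in WT. The part these marker levels play in these results was not tested. In such bulk samples fewer cells of a type and less RNA per cell cannot be told apart.

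In ICM 3-4 the stromelysin MMP3 rose against WT while most other matrix proteases and 3 of the 4 inhibitors fell. The falls were deepest among the ADAMTS genes, whose median log2 fold change was -3.45. Of the 34 tested genes 24 changed, 3 upward (MMP3, ADAMTS18 and TIMP4) and 21 downward. Over all genes tested 47% changed, 23.5% in each direction. The median log2 fold change was -1.74 over the 34 genes and 0 over all genes, a median that moved to 0.18 when libraries were scaled by total counts. Because both WT libraries belong to the first set, treatment and set cannot be told apart here. Mitochondrial mRNA made up 3.11% and 3.54% of counts in WT and 0.241% and 0.252% in ICM 3-4, and summed fibroblast markers ranged from 2052 to 4229 CPM in ICM 3-4 versus 19300 to 25912 CPM in WT. The 6 endothelial markers summed to 2.96 to 16.2 CPM in ICM 3-4 versus 75.1 to 89.7 CPM in WT, and the 4 smooth muscle markers to 4.77 to 21 CPM versus 86.6 to 162 CPM. Epithelial and leukocyte sums moved the other way. The 10 epithelial markers summed to 191 to 212 CPM in ICM 3-4 versus 54.6 to 58.4 CPM in WT, and the 8 leukocyte markers to 96.6 to 106 CPM versus 40.03 to 40.6 CPM. Single genes made up most of these sums, so they do not describe whole marker sets. KRT18 was at 46.1 and 42.7 CPM in WT and 193.7 and 175.5 CPM in ICM 3-4, while EPCAM and KRT19 did not rise. CD68 was at 39.1 and 39.5 CPM in WT and 94.95 and 103.8 CPM in ICM 3-4. The endothelial sum was mostly TEK, at 67.3 and 81.8 CPM in WT and 15.3 and 2.88 CPM in ICM 3-4. Whether these differences play a part was not tested.

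Of the chromosome 11 cluster, MMP3 alone passed the test. It was at 309 and 125 CPM in WT versus 1808 and 1074 CPM in ICM 3-4, with a log2 fold change of 2.54 ± 0.45 (SE, n = 2 per group; edgeR, adjusted p = 0.0029). Each ICM library exceeded each WT library. MMP1 was at 962 and 632 CPM in ICM 3-4, overlapping WT (log2 fold change 0.17 ± 0.33, adjusted p = 0.69). MMP10 had 37.4 CPM in ICM 3 but 3.43 CPM in ICM 4, on both sides of the WT values of 10.4 and 5.40 CPM, with a log2 fold change of 1.2 ± 0.88 (adjusted p = 0.29). The other 4 genes of the cluster were sparse. The elastase MMP12 was at 0.27 and 0.36 CPM in WT and 0.21 and 0.24 CPM in ICM 3-4. The collagenase MMP13 had 26 counts in WT, most of them in WT 1, and none in ICM 3-4, at least 6.10-fold lower if 3 counts are allowed for the group, without passing the test (adjusted p = 0.055). MMP8, the neutrophil collagenase, had 6 counts in WT and 1 in ICM 3-4, and matrilysin (MMP7) was not tested.

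MMP14 and MMP2, the activator and its target, fell together. MMP14 dropped from 939.8 and 915 CPM to 150.0 and 131 CPM (log2 fold change -2.91 ± 0.19, adjusted p = 6.3e-05). MMP2 dropped from 1223 and 1202 CPM to 439 and 308 CPM (log2 fold change -1.89 ± 0.23, adjusted p = 0.00054). TIMP2, which joins them at the membrane, fell by 1.59 on the log2 scale (SE 0.23, adjusted p = 0.0012), from 738 and 863 CPM to 355 and 251 CPM. Among the other membrane-type enzymes, MMP16 fell (13.2 and 17.3 CPM to 7.11 and 11.7 CPM, adjusted p = 0.037) and MMP24 fell (1.22 and 2.00 CPM to 0.795 and 0.552 CPM, adjusted p = 0.042). MMP15, MMP17 and the GPI-anchored MMP25 did not pass. MMP15 had 8.03 and 11.5 CPM in ICM 3-4, below the 14.2 and 12.6 CPM of WT. MMP19 fell by 1.04 on the log2 scale (adjusted p = 0.014), from 22.4 and 27.9 CPM to 16.4 and 11.5 CPM. MMP23B fell from 1.46 and 1.62 CPM to 0.251 and 0.276 CPM (adjusted p = 0.0037), with the caution that its reads cannot be fully separated from those of the pseudogene MMP23A, which shares all of its 100-base stretches with it. Without WT 1 or without WT 2, MMP16 and MMP24 were not called. The call of MMP24 was also lost without ICM 4, and that of MMP19 without WT 2.

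ADAMTS genes fell in 12 of 15 cases. Of the proteoglycan-cutting enzymes, ADAMTS5 fell from 196 and 203 CPM to 11.8 and 4.38 CPM (log2 fold change -4.80 ± 0.45, adjusted p = 0.00018). ADAMTS1 fell less, from 796 and 929 CPM to 205 and 289.9 CPM (log2 fold change -2.0 ± 0.21, adjusted p = 0.00028). ADAMTS9 fell from 14.2 and 13.7 CPM to 1.34 and 1.38 CPM, and ADAMTS4, the other aggrecanase, from 1.43 and 1.32 CPM to 0.167 and 0.0788 CPM. ADAMTS15 (-3.24 ± 0.63) and ADAMTS8 (-2.52 ± 0.55), neighbours on chromosome 11, also fell. Every one of these 6 proteoglycan-cutting enzymes was lower in both ICM 3-4 libraries than in either WT library, as were 6363 of all 19126 genes tested.

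All 3 procollagen N-proteinases fell. ADAMTS2 was at 70.2 and 93.9 CPM in WT and 7.70 and 3.51 CPM in ICM 3-4 (log2 fold change -4.06 ± 0.39, adjusted p = 0.00019). ADAMTS14 had 157 counts in WT and 3 in ICM 3-4, a ratio of 36.8 in CPM with a 95% Clopper-Pearson interval of 12.4 to 181 that covers counting error only. ADAMTS3 fell by 1.44 on the log2 scale (SE 0.48, adjusted p = 0.038), a call lost without WT 1 and without WT 2. The COMP-cutting pair fell too: ADAMTS7 from 174 and 189 CPM to 16.3 and 9.30 CPM (log2 fold change -4.01 ± 0.31, adjusted p = 9.1e-05) and ADAMTS12 from 86.9 and 97.0 CPM to 12 and 7.09 CPM (-3.45 ± 0.29, adjusted p = 0.00012). ADAMTS10 fell from 10.4 and 10.2 CPM to 0.795 and 0.828 CPM. ADAMTS6, its near relative, was at 9.95 and 11 CPM in WT and 7.03 and 11.5 CPM in ICM 3-4, and the groups overlapped. The single rise, in ADAMTS18, rests on 1 count in WT and 25 in ICM 3-4, a ratio of 35.5 with an interval of 5.81 to 1458, and it was not called without WT 2 or without ICM 4. ADAMTS19 did not pass, at 0.298 and 0.247 CPM in WT and 0.962 and 0.197 CPM in ICM 3-4.

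TIMP3 had the deepest fall of the inhibitors, from 176 and 177 CPM to 27.7 and 17.9 CPM (log2 fold change -3.14 ± 0.26, adjusted p = 0.00011). TIMP1 fell by 0.78 on the log2 scale (SE 0.19, adjusted p = 0.012), from 2005 and 1670.5 CPM to 1129 and 1330 CPM, a call lost without WT 1. TIMP4 went the other way at a low level, from 0.536 and 0.741 CPM to 2.38 and 2.29 CPM (log2 fold change 1.67 ± 0.42, adjusted p = 0.013), and was not called without WT 1 or without WT 2.

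Among the substrates of these enzymes 31 of 32 tested fell and 0 rose, with a median log2 fold change of -3.69. Aggrecan (ACAN) was at 5.31 ± 2.03 CPM in WT and had no count in ICM 3-4. Of 35 tested partners 26 changed, 24 of them downward (median -1.69). The lysosomal protease CTSS fell most, to 0.304 ± 0.0159 from 19.0 ± 4.84 CPM, and the sheddase ADAM15 rose most, to 167 ± 17.0 from 44.3 ± 0.930 CPM. The transcription factors split evenly: 8 rose and 8 fell among 20 (median -0.06). The AP-1 subunit FOSL1 rose to 406 ± 48.2 from 54.6 ± 0.872 CPM and RUNX2 fell to 2.39 ± 0.0717 from 16.6 ± 1.07 CPM.

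In ICM 1-2 against WT no member passed the test with edgeR, and 0.173% of all genes tested passed, 0.0837% upward and 0.0889% downward. An unadjusted p under 0.05 was found for 6 of the 34 members tested, and for 4019 of all 19126 genes tested. DESeq2 called 5 members: MMP12 and ADAMTS19 higher, MMP13, MMP19 and ADAMTS7 lower. The median log2 fold change was -0.38 over the 34 genes and 0.15 over all genes. The 2 ICM libraries disagreed on most of these genes. Of the 16 with a mean of at least 10 CPM, 11 differed more than 2-fold between ICM 1 and ICM 2, with a median of 3.17-fold. Over all genes at that level 36% did, with a median of 1.68-fold. Compared with the WT mean, ICM 1 had 3 of 20 genes more than 2-fold higher and 3 more than 2-fold lower, whereas ICM 2 had 4 and 12. Over 10172 genes with a group mean of at least 10 CPM, 7.59% were higher and 11.5% lower in ICM 1. In ICM 2 these shares were 20.5% and 17.1%. Without ICM 1 the test called 24 members (4 higher, 20 lower) and 56.7% of all genes, and without ICM 2 it called 15 members (8 higher, 7 lower) and 44.5% of all genes. In each of these fits the remaining library was taken to vary like the WT pair, although ICM 1 and ICM 2 stood much further apart. DESeq2 called 10.4% of the genes it tested.

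MMP3 had 241 CPM in ICM 1, inside the WT range, but 1740.5 CPM in ICM 2. MMP14 was at 1250 CPM in ICM 1, above both WT libraries, and at 187 CPM in ICM 2, below both. MMP2 was at 1086 and 171 CPM. TIMP3 had 519 CPM in ICM 1 but 60.2 CPM in ICM 2, on either side of the 176 and 177 CPM in WT. The remaining inhibitors were lower in ICM 2 as well, TIMP1 at 1779 and 746 CPM and TIMP2 at 525 and 147 CPM in ICM 1 and 2. ADAMTS2 differed most between the replicates, at 82.6 and 7.61 CPM, and ADAMTS5 was at 129.7 and 32.3 CPM. ADAMTS1 was at 539 and 873 CPM and MMP1 at 288 and 589 CPM, both higher in ICM 2. ADAMTS12 had 110.3 and 39.2 CPM, MMP15 13.5 and 6.84 CPM and MMP16 16.9 and 21.3 CPM in ICM 1 and 2. ADAMTS9 had 17.4 and 2.12 CPM, ADAMTS10 11.1 and 1.38 CPM and ADAMTS19 4.71 and 0.571 CPM. Of the genes in the last 2 sentences only MMP16 was higher in ICM 2. Mitochondrial mRNA was 0.454% in ICM 1 and 0.0677% in ICM 2, and the fibroblast markers summed to 12674 CPM in ICM 1 but 4155 CPM in ICM 2. The part these differences play was not tested.

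In both ICM 1 and ICM 2, 4 of the 34 tested members lay above both WT libraries and 9 lay below both. Over all 19126 genes tested these numbers were 6170 and 4786. Of the 20 genes with a group mean of at least 10 CPM, MMP10, ADAMTS6 and ADAMTS19 lay above. MMP2, MMP19, ADAMTS5, ADAMTS7 and TIMP2 lay below. MMP12 was at 1.48 and 2.08 CPM against 0.27 and 0.36 CPM in WT (log2 fold change 2.40 ± 0.61, adjusted p = 0.15). MMP10 was at 17.9 and 28.7 CPM against 10.4 and 5.40 CPM (1.45 ± 0.45, adjusted p = 0.18). MMP19 was at 11.7 and 7.77 CPM against 22.4 and 27.9 CPM (-1.43 ± 0.40, adjusted p = 0.17), and ADAMTS7 at 59.0 and 8.09 CPM against 174 and 189 CPM (-2.44 ± 0.98, adjusted p = 0.24). MMP10, MMP12, MMP19 and ADAMTS7 did not overlap WT, yet none passed the threshold. ADAMTS6 was at 17.8 and 33.2 CPM, also above WT. MMP13 had no count in either ICM library, at least 12.8-fold below its 26 counts in WT at a floor of 3 counts for the group.

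**Figure D3:**
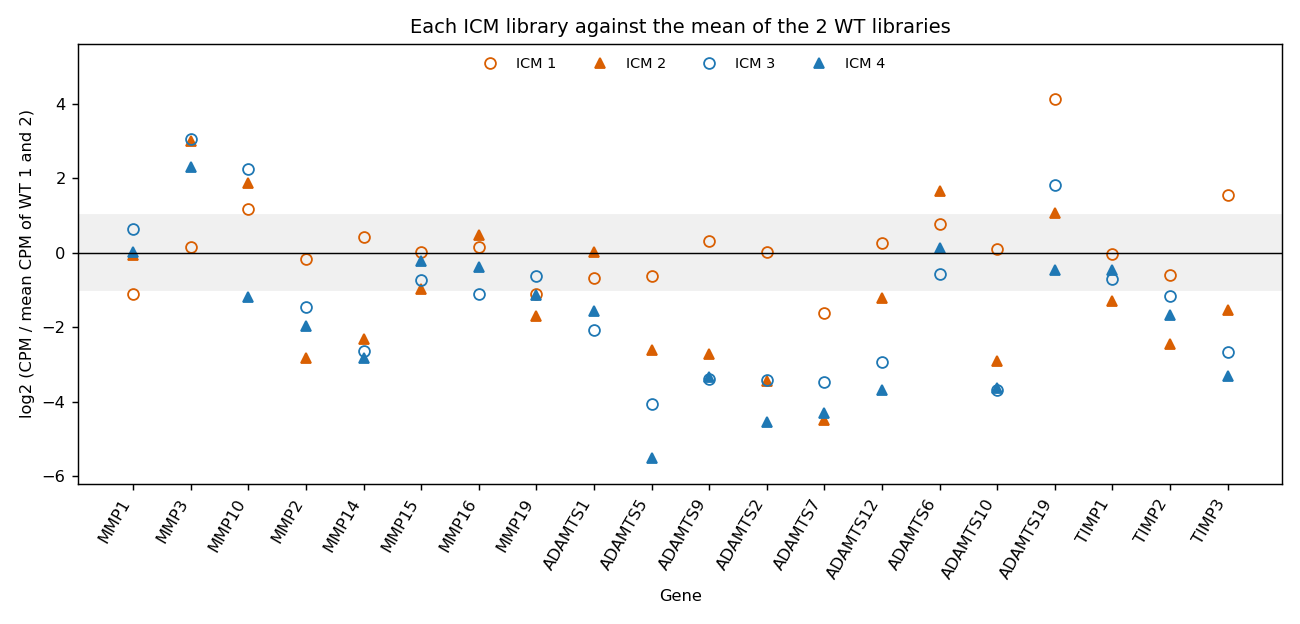
log2 ratio of each ICM library to the mean of the 2 WT libraries in CPM, for the 20 genes with a group mean of at least 10 CPM. The shaded band is a change of less than 2-fold. For MMP2, MMP14 and ADAMTS2, ICM 2, ICM 3 and ICM 4 all lie below the band, while ICM 1 stays within it. Levels still differ between them. Between ICM 2 and ICM 3, 10 of 15 members at 10 CPM or more differed more than 2-fold, against 26.2% of all genes. Between ICM 2 and ICM 4 it was 6 of 13, against 19.6%. All 4 libraries use the same WT mean.

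The make-up of MMP transcripts also set ICM 1 apart from ICM 2, ICM 3 and ICM 4. MMP1 and MMP3 together gave 33.1% and 20.5% of all MMP counts in WT and 11.4% and 7.07% in siHMGB2. ICM 1 lay between them at 18%. In ICM 2 the share was 84.4%, in ICM 3 and 4 it was 80.6% and 78%, and in siCTCF 78% and 79.7%. The libraries labelled siSRRM2 had 87.9% and 88.2%, and those labelled siBANF1 71.7% and 89.0%. MMP2 and MMP14 supplied most of the rest: 64.8% and 76.8% in WT, 85.5% and 89.9% in siHMGB2, and 13.0% in ICM 2. MMP3 exceeded MMP1 in ICM 2, ICM 3, ICM 4, all siSRRM2 and siCTCF libraries and siBANF1 2, and was below it in the other 6 libraries. Read counts are not divided by length in these shares.

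**Figure D4:**
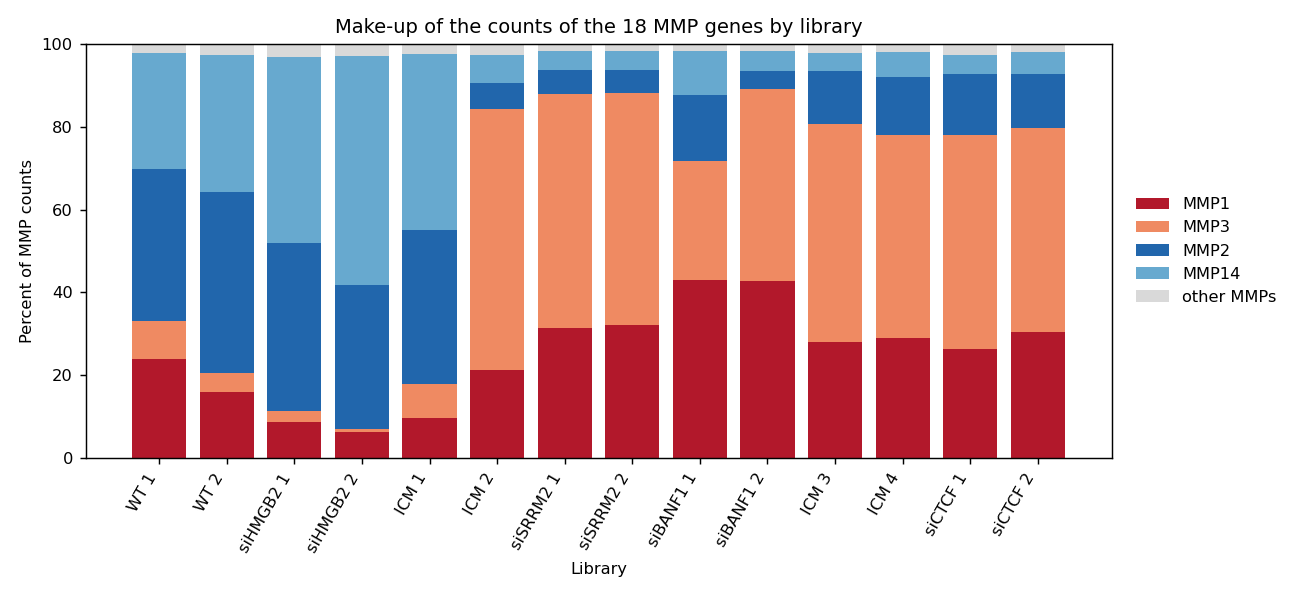
Share of the counts of the 18 MMP genes, in percent, that came from MMP1, MMP3, MMP2, MMP14 and the other 14 genes, 1 bar per library. MMP1 and MMP3 give 7.07% to 33.1% of MMP counts in WT, siHMGB2 and ICM 1, and 71.7% to 89.0% in the other 9 libraries.

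In the libraries labelled siSRRM2 the highest MMP3 and ADAMTS1 levels of the series were seen, but no member passed the test against ICM 1-2. With edgeR 0% of all genes tested passed in this comparison, and DESeq2 called 2 members (MMP1 and ADAMTS1, both higher). An unadjusted p under 0.05 was found with edgeR for 7 of the 34 members tested, and for 1459 of all 19126 genes tested. The siSRRM2 replicates differed by a median of 1.05-fold over members at 10 CPM or more, against 3.17-fold in ICM 1-2. ADAMTS1 was at 2240 and 2178 CPM in siSRRM2 versus 539 and 873 CPM in ICM 1-2 (log2 fold change 1.68 ± 0.35, adjusted p = 0.64). MMP1 was at 1582 and 1599 CPM against 288 and 589 CPM (1.90 ± 0.42, adjusted p = 0.64), and MMP3 at 2833 and 2799 CPM against 241 and 1740.5 CPM (1.57 ± 0.93, adjusted p = 0.69). In all 3 genes both siSRRM2 libraries lay above both ICM libraries. TIMP2 was at 88.5 and 81.3 CPM, the lowest of the series and below both ICM libraries (525 and 147 CPM), with a log2 fold change of -2.01 ± 0.71 (adjusted p = 0.65). ADAMTS19, a protease of unsettled substrate, reached 10.3 and 10.4 CPM, against 4.71 and 0.571 CPM in ICM 1-2 and under 1 CPM in the other 10 libraries. The fits that leave out ICM 1 or ICM 2 keep 1 control library, taken to vary like the siSRRM2 pair, and so cannot show how far the control group itself varies. Without ICM 1 such a fit called 24 members (18 higher, 6 lower) and 52.5% of all genes, and without ICM 2 it called 28 (9 higher, 19 lower) and 62.9% of all genes. Against ICM 3-4 the test called 20 members (17 higher, 3 lower) and 42.3% of all genes, but the sets differ there. DESeq2 called 1.27% of the genes it tested.

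Of the 20 genes with a group mean of at least 10 CPM, 12 had siSRRM2 levels that overlapped those of ICM 1-2. Of the others, 6 lay above both ICM libraries and 2 below both. Over all 19126 genes tested, 3920 lay above both and 4012 below both. MMP10 (siSRRM2 42.9 and 41.3 CPM) and ADAMTS9 (24.1 and 22 CPM) were the other genes with both libraries above, and MMP19 (6.94 and 6.62 CPM) was below both, as TIMP2 was. The overlapping MMP genes were MMP2 at 295 and 275 CPM, MMP14 at 228 and 235 CPM, MMP15 at 7.50 and 7.40 CPM and MMP16 at 19.5 and 17.8 CPM. Of the ADAMTS genes, ADAMTS2 was at 9.82 and 10.3 CPM, ADAMTS5 at 86.8 and 85.1 CPM and ADAMTS6 at 22.6 and 23.9 CPM. All of these lay between the levels of ICM 1 and ICM 2. The same held for ADAMTS7 at 16.3 and 16.8 CPM, ADAMTS10 at 1.93 and 2.10 CPM and ADAMTS12 at 74.5 and 70.4 CPM, and for the inhibitors TIMP1 at 1680.2 and 1607 CPM and TIMP3 at 116 and 111 CPM.

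The libraries labelled siBANF1 held the highest MMP1 level, 3716 CPM in siBANF1 1 and 1686 CPM in siBANF1 2. Both exceeded ICM 1-2 at 288 and 589 CPM (log2 fold change 2.68 ± 0.75), but the adjusted p was 1 and no member passed with edgeR or DESeq2. An unadjusted p under 0.05 was found with edgeR for 1 member and for 34 of all 19126 genes tested, and 0% of all genes tested passed. MMP3 was at 2489 and 1817 CPM against 241 and 1740.5 CPM (1.2 ± 0.97). For several genes the siBANF1 levels lay near those of the ICM library with the same number. MMP14 was at 920.04 and 189 CPM in siBANF1 and 1250 and 187 CPM in ICM, MMP2 at 1388 and 175 CPM and 1086 and 171 CPM, and TIMP3 at 445 and 71.3 CPM and 519 and 60.2 CPM. Between ICM 2 and siBANF1 2 the 13 members at 10 CPM or more differed by a median of 1.07-fold, and MMP1 alone differed more than 2-fold. Between ICM 1 and siBANF1 1 the median was 1.39-fold, and 4 of 18 differed more than 2-fold: MMP1, MMP3, MMP10 and MMP15. Over all genes at 10 CPM or more, 0.341% differed more than 2-fold between the libraries numbered 2 and 9.13% between those numbered 1. The medians over all these genes were 1.09-fold and 1.25-fold. MMP10 was at 59.1 and 25.7 CPM in siBANF1 and 17.9 and 28.7 CPM in ICM 1-2. Leaving out any 1 library gave no call among the members.

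In 18 of the 20 genes at 10 CPM or more the siBANF1 and ICM 1-2 levels overlapped, and the other 2 lay above both ICM libraries. Over all 19126 genes tested, 1194 lay above both ICM libraries and 1572 below both. MMP15 was at 28.5 and 6.76 CPM, MMP16 at 18.7 and 19.3 CPM and MMP19 at 16.7 and 7.30 CPM in siBANF1. ADAMTS1 was at 338 and 935 CPM, ADAMTS2 at 64.1 and 6.69 CPM, ADAMTS5 at 119 and 21.9 CPM and ADAMTS6 at 13.5 and 31.3 CPM. The procollagen N-proteinase ADAMTS2 thus stood far higher in replicate 1, as in ICM 1-2. ADAMTS7 was at 84.8 and 8.21 CPM, ADAMTS9 at 9.71 and 2.04 CPM, ADAMTS10 at 5.55 and 1.39 CPM, ADAMTS12 at 146 and 47 CPM and ADAMTS19 at 0.913 and 0.429 CPM. Of the inhibitors, TIMP1 was at 1411 and 719 CPM and TIMP2 at 759.8 and 151 CPM, both higher in replicate 1.

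In siCTCF no member passed against ICM 3-4, with edgeR or DESeq2. With edgeR none had an unadjusted p under 0.05, and 31 of all 19126 genes tested did. Over all genes tested 0% passed. MMP1 was at 817 and 648 CPM against 962 and 632 CPM, MMP3 at 1593 and 1045 CPM against 1808 and 1074 CPM, and MMP10 at 36.8 and 4.63 CPM against 37.4 and 3.43 CPM. The gap between the replicates of MMP10 was thus about as wide in siCTCF as in ICM 3-4. MMP14 was at 143 and 113 CPM against 150.0 and 131 CPM. TIMP1 was at 1097 and 1377 CPM against 1129 and 1330 CPM. Between siCTCF 1 and ICM 3, and between siCTCF 2 and ICM 4, no member at 10 CPM or more differed more than 2-fold. The medians were 1.07-fold and 1.13-fold. Over all genes at 10 CPM or more, 0% and 0.0114% differed more than 2-fold in these pairs, with medians of 1.09-fold and 1.06-fold. Of the 20 genes at 10 CPM or more, 18 overlapped between siCTCF and ICM 3-4. Over all 19126 genes tested, 1439 lay above both ICM 3-4 libraries and 1827 below both. MMP2 was at 456 and 277 CPM, MMP15 at 8.33 and 12.9 CPM, MMP16 at 8.10 and 9.22 CPM and MMP19 at 17.4 and 11.8 CPM in siCTCF. ADAMTS1 was at 193 and 251 CPM, ADAMTS2 at 7.83 and 2.58 CPM, ADAMTS5 at 14 and 3.70 CPM, ADAMTS6 at 6.67 and 9.45 CPM and ADAMTS7 at 13.3 and 8.33 CPM. ADAMTS9 at 2.19 and 2.17 CPM lay above both ICM libraries and ADAMTS10 at 0.716 and 0.560 CPM below both, without passing the test. ADAMTS12 was at 12.6 and 5.97 CPM, ADAMTS19 at 0.761 and 0.112 CPM, TIMP2 at 329 and 223 CPM and TIMP3 at 24 and 15 CPM. CTCF itself was lower in siCTCF 2 than in siCTCF 1. A p over the threshold with 2 libraries per group does not show that the levels are alike.

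The remaining members were scarce or hard to separate. MMP21, which has a role in left-right patterning, and the blood protease ADAMTS13 stayed at or below 0.187 and 0.328 CPM, and with MMP7, MMP23A, ADAMTS16 and ADAMTS17 they had too few counts to be tested. MMP17 was the highest of the 20 low genes, at 10.5 CPM in siBANF1 1. Exons of MMP24 overlap those of MMP24OS, a gene on the opposite strand with up to 181 CPM, over 18.1% of their length, and MMP25 overlaps MMP25-AS1 over 35.2%. MMP19 overlaps TMEM198B over 17.4%, with TMEM198B at no more than 20.9 CPM. The strand setting of the counts is not given in the sources used here, so reads in these stretches could belong to either gene. ADAMTS7 shares 4.86% of its 100-base stretches with other genes, mostly the pseudogene ADAMTS7P3.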

How the data were processed

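As deposited, every library has its own table of raw counts, with a whole number of reads for each symbol and no pooling. Per the submitters' processing notes, STAR 2.7.3a, HTSeq 0.12.4, DESeq2 1.36.0 and hg38 were used, with no role or order named. The annotation release and the strand setting are not given in the sources used here. The 5 lines for reads given to no gene, 12.8% to 41.8% of the reads of a library, entered neither library sizes nor tests.

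The genes and lists were chosen with earlier results of these data known. Every member is named, those with a group mean of at least 10 CPM by their value in each library of the comparisons described, and from each list the called gene that rose most and the one that fell most. CPM was computed from total gene counts. Per-length levels used merged exon lengths of GENCODE v29, positions and promoters RefSeq on GRCh38.p14.

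Genes were kept by filterByExpr over the 7 groups (19126 genes, 34 members). Each comparison was fitted to its own 4 libraries, using edgeR 4.0.16 (R 4.3.3; TMM scaling, glmQLFit and glmQLFTest, the quasi-likelihood test), which left 2 residual degrees of freedom. The spread of each gene was moderated towards the trend over all genes, so SEs and p-values do not rest on those 2 degrees alone. Calls used Benjamini-Hochberg adjusted p under 0.05 over all genes tested. Standard errors are the log2 fold change divided by the square root of F. An exact permutation test of 2 against 2 libraries cannot go below 0.333 and was not used. Where a group held no count, a floor of 3 counts for the group was used. Fits were tested on simulated data. The alternatives were other scalings (relative log expression, total counts), no filter, DESeq2 1.42.0, a single fit of 14 libraries, protein-coding genes only, a replicate block, other ICM controls and leaving out each library. Other steps used Python 3.11.15 with numpy 2.4.6, pandas 2.3.3 and matplotlib 3.10.9.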

Additional observations from a re-analysis of the deposited data

Results flagged for a closer look

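MMP12, the macrophage elastase of the chromosome 11 cluster, lay above WT in one set of ICM libraries and below the same WT libraries in the other. The fitted log2 fold change was 2.40 in ICM 1-2, where both libraries were above both WT libraries, and -0.67 in ICM 3-4, where both were below. Neither passed the test, levels were at most 2.08 CPM in these 6 libraries, and the difference between the sets was not tested. The siBANF1-labelled libraries had 1.57 and 2.59 CPM, the siSRRM2-labelled ones 0.38 and 0.32 CPM, and siCTCF 0.18 and 0.07 CPM.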

How the results depend on the processing

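Each number of members called is followed by the percent of all genes called in the same fit. For ICM 1-2 against WT, 0 as reported (0.173%), the number was 8 with no filter on low counts (8.88%) and 5 with DESeq2 (10.4%). It was 2 in a single fit of 14 libraries (13.5%) and 1 with a replicate block (7.56%). For siHMGB2 against WT, 13 as reported (10.7%), it was 0 in the single fit (0%), whose spread is shared by all groups. With the replicate block it was 15 (12.0%). In that comparison 6 calls (MMP1, MMP14, ADAMTS1, ADAMTS2, ADAMTS5 and ADAMTS9) kept their direction and threshold in all settings but the single fit. For siSRRM2 against ICM 1-2, 0 as reported (0%), it was 2 with DESeq2 (1.27%) and 1 with the replicate block (0.539%). With ICM 3-4 as control it was 20 (42.3%). For ICM 3-4 against WT, 24 as reported, it was 16 in the single fit and 19 to 28 with 1 library left out, and 14 calls held in all settings (MMP3, MMP14, MMP23B, TIMP3 and 10 ADAMTS genes). No setting called a member in siBANF1 or siCTCF. The largest share of all genes called there was 1.12% in siBANF1, with ICM 3-4 as control, and 0.0209% in siCTCF, with the replicate block. Among the uncalled fold changes printed, the direction turned for 3 genes: TIMP3 in ICM 1-2 (-0.0796 with the replicate block, -1.75 to 1.60 with 1 library left out), and in ICM 3-4 MMP1 (-0.28 to 0.68, with -0.20 without WT 2) and MMP10 (-1.51 to 2.10) with 1 library left out. Over all 34 tested members the fitted direction turned in at least 1 setting for 14 in ICM 1-2, 5 in ICM 3-4, 6 in siHMGB2, 20 in siSRRM2, 29 in siBANF1 and 29 in siCTCF, and for 0 of the calls reported. The cause was not tested.

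Same-numbered replicates deviated together with r = 0.81 over genes in siBANF1 and ICM 1-2 and r = 0.48 in siCTCF and ICM 3-4, against -0.08, 0.06 and -0.001 in the other pairings, with only 2 pairs each and no pairing stated in the labels. No paired analysis was possible for ICM 3-4 against WT because the groups share no replicate numbers. With TMM-scaled library sizes 30 of 140 group means in CPM moved by more than their SD, at most 1.14-fold. Genes under 1 CPM rest on few counts, which limits the size of change that can pass the test there.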
